A study of Sedum plumbizincicola and Sedum alfredii with 13 samples.

Results

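The transcripts described here were selected on their measured species ratios: their read counts were higher in roots of Sedum plumbizincicola than in roots of Sedum alfredii while the counts of both species lay close together in shoots. The choice used 12 Illumina RNA-seq libraries. Of 66584 assembled transcript clusters, 10144 had at least 10 estimated reads in all 12 libraries, and 3701 of those had a shoot ratio of mean normalised count, S. plumbizincicola over S. alfredii, between 0.67 and 1.5. The 100 with the highest root ratio of mean normalised count form the set. A normalised count is the estimated read count divided by the median-of-ratios size factor of its library. All 100 met the minimum of 10 reads by construction. Because the species ratios in roots and shoots chose these transcripts, those ratios are given as a description and no test is attached to them.

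Sedum plumbizincicola is a succulent that takes up cadmium (Cd) and zinc and stores them at high concentration in its leaves, which makes it a hyperaccumulator. The S. alfredii used belonged to an ecotype, labelled NHE, that does not hyperaccumulate. In a hyperaccumulator, metal that enters the root is loaded into the xylem, carried to the shoot and stored in leaf vacuoles, whereas other plants hold more of it in root cells. Uptake, vacuolar storage in the root and xylem loading all take place in root cells. The deposited files pair none of the cluster IDs with a gene name (0 matched), so no role can be given to a member, and the labelled organs were not checked against marker genes.

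Every plant of the Illumina experiment had received 0 or 10 µM CdCl2 for 3 days. S. plumbizincicola had 2 libraries, called A and B here after the letters in their titles, for roots and for shoots at each dose, 8 in all, and S. alfredii had 1 library for each organ and dose, 4 in all. The series describes the former as biological replicates; the labels do not give the number of plants behind each library. A pyrosequenced pool of root and shoot RNA was not analysed here. Library totals were 1260160 to 2403856 estimated reads in S. plumbizincicola and 3434920 to 4670429 in S. alfredii. For a transcript with the same share of reads, counting error is larger in the former. In roots the members together had 11486 to 19623 reads per S. plumbizincicola library but 7723 and 8472 in S. alfredii. Their relative counting error in roots was thus larger in S. alfredii. Replicate libraries differed by more than sampling noise in every S. plumbizincicola group (chi-square per transcript of 2.77 to 12.1 over all transcripts). For the members it was 24.1 in untreated and 6.95 in treated roots, against 12.1 and 3.18 over all. In untreated and treated shoots it was 3.91 and 2.22 for the members, against 4.26 and 2.77. The widest A to B gap of a member in untreated roots was that of c45898_g5, at 1048 and 187 estimated reads. The value of 24.1 includes this transcript and was not recomputed without it. The median absolute log2 ratio of A to B was 0.309 in untreated and 0.316 in treated roots for the members. Over all transcripts that met the minimum count it was 0.263 and 0.270, so the typical member differed less from the rest than the chi-square values do. Untreated root library A stood apart from B with 15.3% against 5.94% of its reads in its 10 most abundant transcripts. In bulk organs, fewer cells of a type and less RNA per cell cannot be told apart.

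The 100 transcripts were moderately abundant. Their mean normalised count in S. plumbizincicola roots ran from 20.2 to 828 with a median of 89.8, and in S. alfredii roots from 5.54 to 225 with a median of 22.0. In shoots the medians were 62.9 and 57.4. Over all 10144 transcripts with enough reads the same medians were 76.4, 79.1, 81.5 and 79.2, in that order, so the S. alfredii root was the group in which the members stood furthest below the typical transcript. Together they took 0.772% to 0.911% of the reads of the S. plumbizincicola root libraries, 0.571% to 0.618% in its shoot libraries, 0.214% and 0.225% in S. alfredii roots, and 0.323% and 0.424% in S. alfredii shoots. The 95% exact binomial intervals of the root shares were 0.759% to 0.786% for the lowest S. plumbizincicola library and 0.220% to 0.230% for the higher S. alfredii library, and they cover counting error only.

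**Figure D1:**
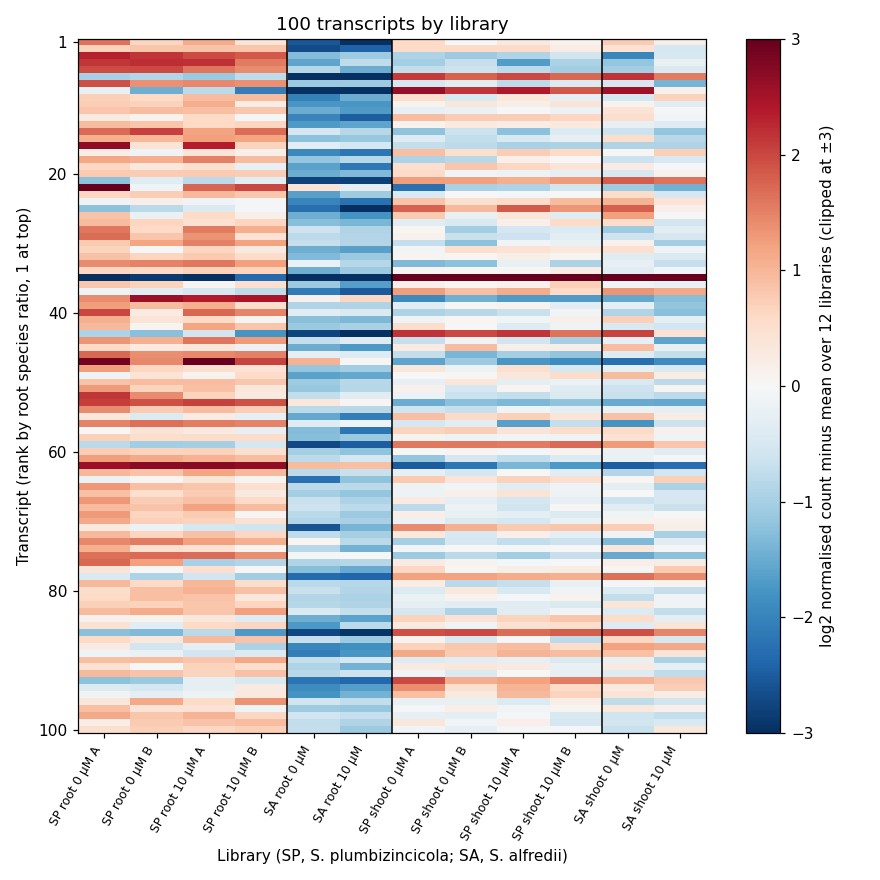
Each row is 1 of the 100 transcripts, ordered by root ratio, and each column 1 of the 12 libraries (SP, S. plumbizincicola; SA, S. alfredii; µM, CdCl2 dose; A and B, replicate libraries). Colour is the log2 normalised count minus the transcript's mean over the 12 libraries, and the 2 SA root columns are below the row mean in most rows, while SP and SA shoot columns resemble each other.

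Root ratios were between 2.89 and 14.0 with a median of 3.52 (interquartile range 3.11 to 4.09), against a median of 1.03 over the 10144. Shoot ratios were between 0.686 and 1.49 with a median of 1.15, and 65 of the 100 were above 1 (49.9% of the 10144). The transcript with the highest root ratio was c34637_g1. It had 141 and 71.8 normalised counts in untreated S. plumbizincicola roots, 99.1 and 59.8 in Cd-treated ones, and 7.93 and 5.34 in untreated and Cd-treated S. alfredii roots. Those S. alfredii root values rest on 14 and 11 estimated reads, close to the minimum of 10. In shoots it had 70.3, 45.8, 55.8 and 49.3 in S. plumbizincicola and 77.9 and 51.8 in S. alfredii. The S. alfredii root was thus the only organ in which this transcript was low, and the shoot libraries of the species overlapped.

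The second transcript, c42856_g1, had 148, 162, 165 and 162 normalised counts in the S. plumbizincicola root libraries (untreated A and B, then treated A and B) and 14.2 and 17.0 in S. alfredii roots, a root ratio of 10.2. Its shoot values of 137, 139, 137 and 106 lay near its own root values in S. plumbizincicola, and S. alfredii shoots had 124 and 63.8. Its 4 S. plumbizincicola root libraries spanned no more than 148 to 165. At the threshold, the 99th and 100th transcripts, c42822_g1 and c42746_g1, had root ratios of 2.90 and 2.89, and the first pair left out, c39025_g1 and c36695_g1, had 2.88 and 2.88, so the edge of the set is not a gap in the data.

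**Figure D2:**
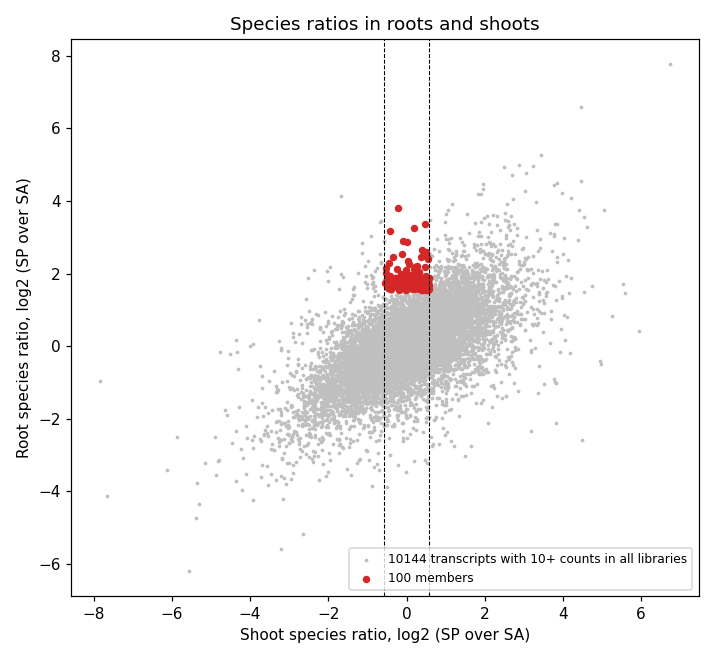
Each point is a transcript with at least 10 reads in all 12 libraries, with the log2 shoot species ratio on the horizontal axis and the log2 root species ratio on the vertical axis (SP over SA, ratios of mean normalised count). Dashed lines mark shoot ratios of 0.67 and 1.5, and the 100 members in red lie between them at root ratios from 2.89 to 14.0.

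The separation in roots did not rest on 1 library for most members. The lowest S. plumbizincicola root library exceeded the highest S. alfredii root library for 98 of the 100, where 34.4% of the 10144 did so, and by at least 2-fold for 81, where 8.49% did so. These counts follow from the choice of members and say nothing further about them. The root ratio was at least 2 at both doses for 97 of the 100 (12.4% of the 10144) and above 1 at both for 99 (45.4%). The rule averaged the same root values, so these counts too follow from the choice. With the highest of the 4 S. plumbizincicola root libraries removed from each transcript the root ratio still ranged from 2.09 to 11.6. Median log2 ratios of single S. plumbizincicola root libraries over the S. alfredii root mean were 2.00 and 1.71 untreated and 1.86 and 1.73 with Cd.

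Both transcripts whose root libraries overlapped between species, c45898_g5 and c42128_g2, are described below. In c45898_g5, untreated library A alone held 55.8% of the summed normalised count of the 4 S. plumbizincicola root libraries. It was the only member for which 1 library held over 50%.

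Closeness in shoots was a property of the mean over doses and of the scaling. The shoot ratio lay inside 0.67 to 1.5 at both doses separately for 49 of the 100, against 24.4% of the 10144. The shoot libraries of the species overlapped in range for 75 of the 100, against 28.2% of the 10144. Both counts use the shoot values that the rule used, so their excess over the 10144 follows from the choice. The overlap among the 3701 transcripts in the window was not counted. The median log2 shoot ratio of the members was 0.10 at 0 µM and 0.33 at 10 µM, against 0.02 and 0.01 over the 10144. With the authors' TPM in place of size-factor normalised counts 40 of the 100 stayed inside the window and 57 lay above it. On that scale, however, the median log2 shoot ratio of all 10144 transcripts was itself 0.59, and that of the members was 0.68, so the members were 0.08 above the typical transcript. Counts scaled to the library total (CPM) gave 37 of 100 inside the window, with a median of 0.74 for the members and 0.53 for all 10144. The 10 most abundant transcripts took 12.9% and 15.4% of the S. alfredii shoot libraries and 7.93% to 9.30% of the S. plumbizincicola shoot libraries, and the part of this in the shift was not tested. In roots the scales differed little, with member medians of 1.82, 1.77 (TPM) and 1.83 (CPM) on the log2 scale. The name "equal in shoots" therefore does not hold on the TPM or CPM scale. There the median log2 shoot ratio of the members was 0.08 (TPM) and 0.20 (CPM) above that of the typical transcript. How many members lie in a window centred on the typical transcript was not counted.

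Since the shoot ratios were near 1, a high root ratio had to appear as a different balance of root and shoot in the species, and the members reached it in different ways. In S. plumbizincicola the root-to-shoot ratio of the members had a median of 1.66 (interquartile range 0.953 to 2.78), and in S. alfredii a median of 0.491 (0.242 to 0.864). All 10144 transcripts had medians of 1.02 and 0.985. For 57 of the 100 the root was higher than the shoot in S. plumbizincicola and lower in S. alfredii (16.8% of the 10144). The root was the higher organ in both species for 17 (34.7%), and the shoot in both for 26 (34%). These values share all their libraries with the rule and are a description only.

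One group of 36 members was root-biased by at least 2-fold in S. plumbizincicola without being shoot-biased 2-fold in S. alfredii (11.8% of the 10144 were). Another 47 were shoot-biased by at least 2-fold in S. alfredii without being root-biased 2-fold in S. plumbizincicola (17.2%). Both conditions were met by 4 members (0.286% of the 10144) and neither by 13 (70.7%). The counts of the conditions taken singly, 40 and 51, became 52 and 27 with TPM and 54 and 29 with CPM, so which of the groups is the larger depended on the scaling.

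**Figure D3:**
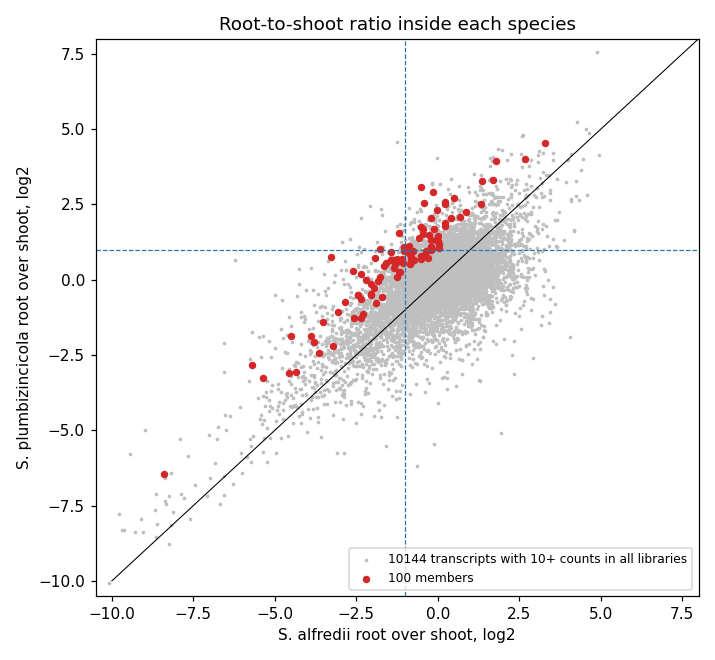
Each point is a transcript, with the log2 ratio of mean normalised count, root over shoot, in S. alfredii on the horizontal axis and in S. plumbizincicola on the vertical axis. The solid line marks equal ratios, the dashed lines mark 2-fold root bias in S. plumbizincicola and 2-fold shoot bias in S. alfredii, and the 100 members in red run parallel above the solid line from strongly shoot-biased to strongly root-biased.

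The strongest root bias in S. plumbizincicola belonged to c45298_g1 and c41257_g1. The former had 696, 769, 780 and 748 normalised counts in S. plumbizincicola roots and 20.7, 26.0, 45.7 and 35.4 in its shoots, a ratio of 23.4. S. alfredii showed the same bias at a lower level, with 225 and 221 in roots and 21.1 and 24.1 in shoots, a ratio of 9.88. In c41257_g1 the S. plumbizincicola root libraries spread more widely, at 667 and 244 untreated and 702 and 366 with Cd, library A being the higher at each dose. Its S. alfredii roots had 182 and 91.3, below all 4 of those values.

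At the other end, c45838_g2 was almost a shoot transcript. It had 28.3, 36.3, 27.3 and 53.0 normalised counts in S. plumbizincicola roots and 6.80 and 12.6 in S. alfredii roots, beside 2856 to 3682 in S. plumbizincicola shoots and 4304 and 2309 in S. alfredii shoots. Its root-to-shoot ratio was 0.0114 in S. plumbizincicola and 0.00294 in S. alfredii. In c42116_g1, next in S. alfredii with a ratio of 0.0193, roots had 50.2 to 64.3 in S. plumbizincicola and 7.93 and 7.77 in S. alfredii, and shoots 359 to 468 and 321 to 490. For 10 of the 100 the S. alfredii root had a ratio to its shoot of 0.1 or less, against 2.69% of the 10144. In such a transcript the S. alfredii root was low relative to the S. alfredii shoot, which need not mean scarce in the roots of both species. In c41815_g2 the S. plumbizincicola roots had 316, 134, 214 and 86.9 normalised counts, all above the median of 76.4 over the 10144. Its S. alfredii roots had 34.5 and 27.7, beside 2139 and 399 in S. alfredii shoots.

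The rule did not use the difference between doses, but its means were taken over the treated and untreated libraries compared here, so the Cd tests are not independent of the choice and their calls are read within the whole table. In its roots 2 of the 100 members fell with Cd and none rose, by edgeR's quasi-likelihood test with Benjamini-Hochberg adjustment over all 19935 transcripts tested. Across those 19935, 1.98% fell and 0.105% rose, while among the 10144 with reads everywhere 0.0394% (4 transcripts) fell and 0.069% (7 transcripts) rose. The 98 other members included 46 with a log2 fold change above 0, and the median log2 fold change of the 100 was -0.03 against -0.01 over the 10144. By the ratio of normalised counts alone, 2 members were at least 2-fold lower and 0 at least 2-fold higher in treated roots (0.168% and 0.197% of the 10144), and none was 2-fold apart in either direction in shoots (0.118% lower and 0.148% higher).

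The larger fall was that of c42128_g2. It had 788 and 563 normalised counts in untreated S. plumbizincicola roots and 121 and 129 in treated ones. S. alfredii roots had 127 untreated and 132 treated, and the shoots of S. plumbizincicola had 281, 255, 227 and 238 beside 273 and 277 in S. alfredii. The untreated S. plumbizincicola root libraries were thus above all others, and the treated ones lay at the S. alfredii root level. The log2 fold change in S. plumbizincicola roots was -2.42 (SE 0.22, edgeR adjusted p = 3.16e-05, lower in both treated libraries than in both untreated ones), and the call held in all 14 alternative fits. Its species ratio in roots was 5.30 at 0 µM and 0.947 at 10 µM, so its place in the set came from the same untreated libraries that make the fall, and the call is no independent evidence about the set.

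The Cd change of c42128_g2 in roots was also compared between the species, on the same root counts that the rule averaged. S. alfredii has 1 library per dose, so this fit takes the spread from the S. plumbizincicola replicate pairs and assumes that each lone library varies like them. The difference was -2.49 on the log2 scale (SE 0.38, edgeR adjusted p = 0.0162 over 26730 transcripts), and c42128_g2 was the 1 member called, where 0.0112% of all tested were called in each direction (0.00986% of the 10144, downward). The call was lost when the test was restricted to the 10144 transcripts (edgeR adjusted p = 0.0549), without treated root library A or B (adjusted p = 0.0801 and 0.0594) and without treated shoot library A or B (0.0590 and 0.0619), while the difference stayed between -2.21 and -2.74 in every fit that left out a library. Between roots and shoots of S. plumbizincicola the difference of its Cd changes was -2.20 (SE 0.31), with an edgeR adjusted p = 0.065. It was called by DESeq2 (adjusted p = 0.000226) and by limma on log2(TPM + 1) (adjusted p = 0.0221).

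Another cluster of the same assembly component moved with c42128_g2. The cluster c42128_g1 had 624 and 416 normalised counts in untreated S. plumbizincicola roots, 43.1 and 14.7 in treated ones, 3.46, 0, 1.27 and 0 in the shoots of that species and 0 reads in all 4 S. alfredii libraries. The remaining cluster, c42128_g3, had 45.9 and 9.22 in S. alfredii roots and 0 reads in every S. plumbizincicola library. Reads of similar sequences can be divided among clusters of 1 component, and the part of c42128_g1 in the values of c42128_g2 was not tested. Both partners were singled out after their values were seen.

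The other fall, that of c37719_g1, was smaller. It had 121 and 72.5 normalised counts untreated and 43.1 and 32.7 with Cd in S. plumbizincicola roots, all above the 16.4 and 21.8 of S. alfredii roots, and 15.7 to 24.2 in the shoot libraries of both species. The log2 fold change was -1.32 (SE 0.32, edgeR adjusted p = 0.0443, lower in both treated libraries). The call was lost in 7 of 14 alternative fits, which were DESeq2 (adjusted p = 0.353), the test restricted to the 10144 transcripts (0.504), and those without untreated root library A (0.396), treated root library A (0.0939) or B (0.471) or treated shoot library A (0.0681) or B (0.0671).

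The highest log2 fold changes in S. plumbizincicola roots were 0.79 for c33605_g1 (SE 0.40, edgeR adjusted p = 0.794) and 0.75 for c40374_g2 (SE 0.38, adjusted p = 0.794), and neither passed the test. The former had 15.7 and 17.0 normalised counts untreated and 30.1 and 27.1 with Cd, so the doses did not overlap, at low counts. The latter had 17.3 and 23.2 untreated and 30.1 and 39.5 with Cd.

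**Figure D4:**
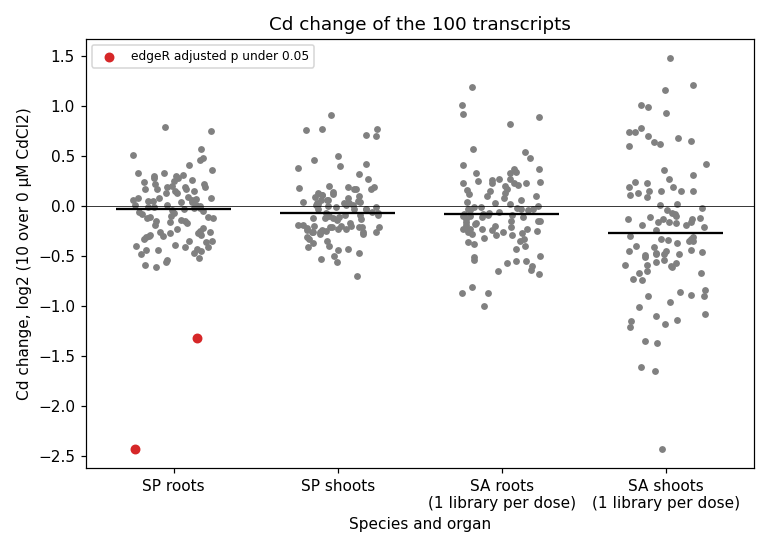
Each point is 1 of the 100 transcripts and the vertical axis is its log2 change with Cd (10 over 0 µM CdCl2) in S. plumbizincicola (SP) roots and shoots, from edgeR, and in S. alfredii (SA) roots and shoots, from 1 library per dose. Horizontal bars are medians and red points the 2 transcripts past an edgeR adjusted p of 0.05, both in SP roots, at -2.42 and -1.32.

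In S. plumbizincicola shoots no member passed the test for Cd. edgeR called 0 of the 100 and 0 of the 19935, with 5 members and 469 of all at an unadjusted p under 0.05, and DESeq2 and limma on log2(TPM + 1) also called 0 of the 100. The log2 changes of the members had a median of -0.07, against -0.03 over the 10144. The highest were 0.92 for c35126_g1 (SE 0.39) and 0.78 for c39929_g1 (SE 0.36), and the lowest -0.69 for c42691_g1 (SE 0.30) and -0.56 for c36595_g1 (SE 0.40), each with an edgeR adjusted p = 1.0. In c35126_g1 the untreated shoots had 12.7 and 13.6 normalised counts and the treated ones 26.7 and 24.0. For the difference between the root and shoot responses edgeR likewise called 0 of the 100 and 0 of the 19935, with 3 members and 528 of all at an unadjusted p under 0.05, while DESeq2 and limma each called 1 member, c42128_g2. Over all 19935, DESeq2 called 0 higher and 1 lower, and limma 13 higher and 293 lower.

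S. alfredii had 1 library per dose, so its Cd ratios have no replicate check and no test. In its roots 2 members were at least 2-fold higher with Cd and 0 at least 2-fold lower, where 0.759% and 0.828% of the 10144 were. Those were c44900_g1, with 6.80 normalised counts untreated and 15.5 treated, and c44003_g1, with 15.9 and 32.0. They rest on 12 and 32 estimated reads in c44900_g1, near the minimum of 10 when untreated, and 28 and 66 in c44003_g1. The lowest ratio was that of c41257_g1, at 182 and 91.3, and c40280_g2 followed at 54.9 and 30.1. In c44900_g1 the S. plumbizincicola roots had 50.3 and 36.3 untreated and 28.7 and 27.1 with Cd, so the species ratio went from 6.37 at 0 µM to 1.80 at 10 µM. Its Cd change differed between the species by -1.79 on the log2 scale (SE 0.61), which did not pass the test (edgeR adjusted p = 1.0).

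In S. alfredii shoots 12 members were at least 2-fold lower with Cd and 4 at least 2-fold higher, where 3.40% and 3.17% of the 10144 were, and 32 of the 100 were above 0, against 48.9%. With TPM the counts were 7 lower and 7 higher. The lowest was c41815_g2, with 2139 normalised counts untreated and 399 treated, while the S. plumbizincicola shoots had 2242 and 1621 untreated and 1938 and 1340 treated. Next was c40374_g2, at 142 and 45.3. The highest was c41224_g3 at 38.1 and 106, followed by c40013_g1 at 57.6 and 133. The treated S. alfredii shoot entered the mean that placed these transcripts inside the shoot window.

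Tested against the S. plumbizincicola shoot response, with the same assumption on lone libraries, no member passed (0 of 100 with edgeR and 0 with DESeq2). Of the 26730, edgeR called 0.183% higher and 0.337% lower (0.227% and 0.503% of the 10144). An unadjusted edgeR p under 0.05 was reached by 14 members, by 1606 of the 26730 and by 842 of the 10144. Without the filter on low counts edgeR called 2 members, c40374_g2 (1.85, adjusted p = 0.0183) and c41017_g1 (1.97, adjusted p = 0.033), beside 136 higher and 168 lower of 65369. With a block for letters A and B edgeR called 4 members higher and 1 lower, beside 157 higher and 211 lower of 26730. With the filter and no block, the largest difference was 2.15 for c41815_g2 (SE 0.95, edgeR adjusted p = 0.875). The most negative was -1.86 for c42691_g1 (SE 0.52, adjusted p = 0.173). In c42691_g1 the S. alfredii shoot had 20.3 untreated and 45.3 treated, and the S. plumbizincicola shoots 49.5 and 55.7 untreated and 22.8 and 43.0 treated. c39929_g1 (1.91, SE 0.62) and c32651_g2 (-1.37, SE 0.56) came next in each direction, with edgeR adjusted p = 0.327 and 0.648. In that fit the lowest edgeR adjusted p of a member was 0.104, for c41017_g1 (1.89, SE 0.48). Its shoots had 40.3, 37.1, 57.1 and 77.1 normalised counts in S. plumbizincicola and 75.5 and 34.2 in S. alfredii.

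Measures that the rule did not use were then compared with those of all 10144 transcripts. Cluster length, weighted by isoform abundance, had a median of 1278 bases for the members and 1476 for all. The median number of isoforms was 4 in both, and 6 of the 100 had a single isoform against 6.78%. In roots the weighted length was within 1.1-fold between the species for 48 members (49.5% of all), longer in S. plumbizincicola for 36 (28.8%) and shorter for 16 (21.6%). A change of weighted length means that the reads of the species fell on different isoforms of the cluster. The largest rises were those of c40612_g1, at 1036 bases in S. plumbizincicola roots and 455 in S. alfredii roots, and c41017_g1, at 1931 and 902. The largest falls were those of c40998_g1, at 1005 and 1822 bases, and c40798_g1, at 1293 and 2033.

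Length matters for the size of the species ratio on a per-length scale. In c40612_g1 the root ratio was 4.33 by normalised counts (40.9, 44.0, 51.7 and 46.3 against 8.49 and 12.6) but 1.53 by TPM, and in c41017_g1 it was 4.04 (99.04, 80.3, 70.3 and 80.1 against 21.0 and 19.9) and 1.66. In c40998_g1 it went the other way, from 3.05 to 5.93. By TPM 94 of the 100 kept a root ratio of at least 2 (15% of the 10144), with a lowest value of 1.26. The TPM come from the same libraries that chose the members, so this count is no independent check.

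Per length, the most abundant members in S. plumbizincicola roots were c45898_g5 and c31298_g2. The single-isoform cluster c45898_g5, 334 bases long, had 3146 and 350 TPM in untreated S. plumbizincicola roots, 1333 and 1564 TPM in treated ones, and 468 and 289 TPM in S. alfredii roots. Untreated library B was thus below an S. alfredii library. Its neighbour in the component, c45898_g4, followed the same order of libraries with 11895, 1260, 4088 and 4917 normalised counts, and the ratio of c45898_g5 to c45898_g4 stayed between 0.115 and 0.139 in those 4 libraries, against 1.03 and 0.815 in S. alfredii roots. The part of c45898_g4 in the values of c45898_g5 was not tested, and this neighbour was singled out after its values were seen. In contrast c31298_g2 had 483, 479, 452 and 355 TPM in S. plumbizincicola roots and 135 and 132 TPM in S. alfredii roots, with no overlap.

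The 100 transcripts came from 100 different components, so no pair of members shares one. The component of 52 members holds further clusters, against 46.8% of the 10144, and summing all clusters of a component shows whether the species ratio is that of 1 cluster or of the component. After summing, 15 of the 52 had a root ratio under 2, 10 of those under 1.5 and 3 under 1. For 30 of the 52 the component kept both a root ratio of at least 2 and a shoot ratio inside 0.67 to 1.5. The other 48 members are alone in their component and are not affected. A partner cluster at least 2-fold lower in S. plumbizincicola roots, with a mean of at least 10 normalised counts in S. alfredii roots, stood beside 13 members. Of those 13, 9 were among the 15. The same count over the 10144, 17.4%, includes transcripts that are themselves that much lower in S. plumbizincicola roots. No member can be so, and the shares cannot be compared.

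**Figure D5:**
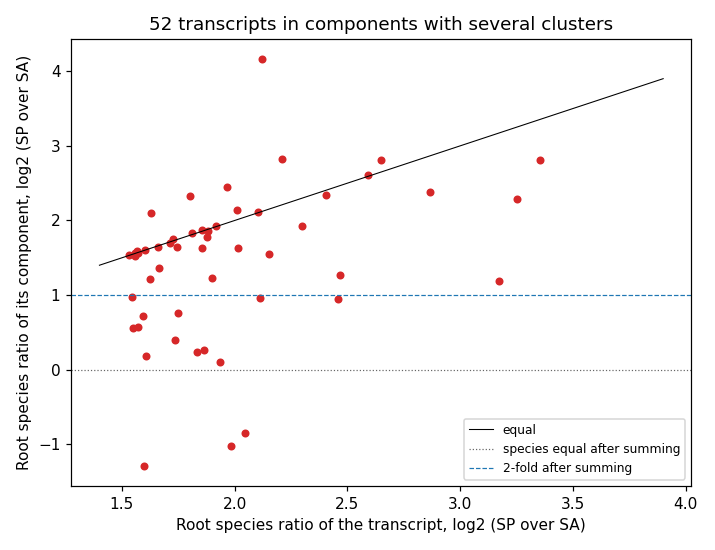
Each of the 52 points is a member whose component holds several clusters, with its own log2 root species ratio (SP over SA) on the horizontal axis and that of the summed component on the vertical axis. The solid line marks equal ratios, and 15 points lie below the dashed line at 2-fold, 3 of them below the dotted line where the species are equal.

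Relative to the member's own ratio, the component ratio was lowest for c37013_g1 and c40374_g2. The former had 75.5, 41.7, 60.3 and 31.6 normalised counts in S. plumbizincicola roots and 13.6 and 12.9 in S. alfredii roots, a ratio of 3.95, and its component had a ratio of 0.492. Within that component c37013_g3 had a mean of 38.9 in S. plumbizincicola and 180.1 in S. alfredii roots, c37013_g2 had reads only in S. alfredii (51.0 in roots) and c37013_g4 only in S. plumbizincicola (29.2 in roots). In the component of c40374_g2 the ratio went from 4.12 to 0.557, since c40374_g1 had 99.6 and 221 in the roots of the species. Clusters with reads in S. alfredii alone stood beside 12 members (8.84% of all) and with reads in S. plumbizincicola alone beside 16 (10.7%). How far reads of a species failed to align to clusters taken from the other was not tested, and with both species counted on 1 transcript set it cannot be told apart from a difference in expression.

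A further kind of partner resembles c42128_g1, with at least 10 reads over the S. plumbizincicola root libraries, at most 5 over its shoot libraries and none in S. alfredii. Such a cluster stood beside 6 of the 100 members, against 1.05% of the 10144, a definition made after the values of c42128_g1 were seen and carrying no test. Among those 6 were c32651_g2, c45898_g5 and c42128_g2, with component root ratios of 2.28, 17.9 and 4.29. Of the 6, only c42128_g2 passed the test for a Cd change in S. plumbizincicola roots.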

How the data were processed

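Per the file headers the authors deposited, for each cluster and library, an expected count, TPM, FPKM and an isoform-weighted length; FastQC, Bowtie and RSEM appear in the submitters' processing notes, without versions. No source used here says how the transcripts were assembled. The deposited expected counts (98.7% to 99.4% of non-zero values exactly whole) were rounded for the tests; the authors' TPM entered an alternative; the deposited FPKM were not tested. The members and lists were chosen with earlier results of these data known.

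Cd contrasts came from the robust two-sided quasi-likelihood F-test of edgeR (version 4.0.16, R 4.3.3) at an adjusted p of 0.05, after filterByExpr and TMM scaling: group means of the 8 S. plumbizincicola libraries (19935 transcripts, 4 residual degrees of freedom), and of all 12 libraries for species differences (26730 transcripts, 4 residual degrees of freedom). SEs were derived from the F statistic. DESeq2 1.42.0 and limma 3.58.1 were alternatives; code was tested on simulated counts. No group exceeds 2 libraries, so p-values measure the spread between those libraries. Depth was 1260160 to 4670429 reads per library. Named transcripts are, for each comparison, at most 2 at each extreme, called or not; partners and further IDs were added after their values were seen.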

Additional observations from a re-analysis of the deposited data

Results flagged for a closer look

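The Cd change of c42128_g2 in roots differed between the species in edgeR's test of the difference, by -2.49 on the log2 scale (adjusted p = 0.0162, range over the 13 alternatives 1.16e-06 to 0.0801). The root counts tested are those that chose the transcript. It was lower in both treated S. plumbizincicola root libraries than in both untreated ones. Another pair of transcripts had opposite directions of change in S. plumbizincicola roots and shoots, with every treated library below every untreated one in roots and above in shoots. In c41017_g1 the roots had 99.04 and 80.3 normalised counts untreated and 70.3 and 80.1 with Cd, and the shoots 40.3 and 37.1, then 57.1 and 77.1. In c41224_g3 the roots had 744 and 659, then 583 and 531, and the shoots 78.3 and 70.6, then 79.96 and 102.4. The root minus shoot difference was -0.99 on the log2 scale for c41017_g1 and -0.59 for c41224_g3. Neither difference passed edgeR's interaction test (adjusted p = 1.0 for each). The pattern was as frequent over all 10144 transcripts, at 199 or 1.96%, as among the 100 members, at 2.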

How the results depend on the processing

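Membership depended on the scaling, dose and minimum count. Of the 100 transcripts, 37 were chosen again with plain CPM, 34 with TPM and 26 with a mean count of 10 in place of a minimum. From untreated and treated libraries alone 57 and 58 were. With at least 50 counts in all libraries 22 were chosen again, and with a narrower shoot window 50. No more members than those 22 and 50 met the changed limits, so these settings kept every member that they could keep. Leaving out a library kept 68 to 95. The median log2 root ratio stayed between 1.77 and 1.87 without any 1 library, and the shoot median between 0.076 (without the treated S. alfredii shoot) and 0.32 (without the untreated one). The shoot median was 0.26 with TMM, 0.74 with CPM, 0.68 with TPM, 0.10 and 0.33 at 0 and 10 µM, and 0.11 after summing components. Members with S. alfredii shoot bias of 2-fold numbered 29 with CPM and 27 with TPM.

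Members called for Cd in S. plumbizincicola roots numbered 1 with DESeq2, 1 when only transcripts with 10 counts everywhere were tested, and 1 to 3 without a library. Called for the root minus shoot difference was 1 member without a filter, with that minimum, with DESeq2, with limma and with the replicate block, and 0 to 1 without a library. The species difference in root response numbered 0 with that minimum and 0 to 2 without a library, and in shoots 2 without a filter. With untreated root library A left out, c45898_g5 had a root minus shoot difference of 1.28, reversed from -1.32 (lowest -2.22, without library B), and was called in roots (2.01, adjusted p = 0.00384). Without library B it was called in the opposite direction (-1.51, adjusted p = 0.018).

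The letters A and B were not taken to pair libraries: A minus B deviations of the groups correlated at 0.095 to 0.335 over 19935 transcripts, all above 0, which is a hint from the data and not from the design. The replicate block called 2 members for Cd in roots, 0 in shoots, 1 for the species difference in roots and 5 in shoots (c41815_g2 at an adjusted p of 0.000562, c40374_g2, c41017_g1, c42691_g1 and c24031_g1), while over all transcripts it called 51 higher and 465 lower, 5 and 0, 20 and 8, and 157 and 211, in that order. It called 1 member for the root minus shoot difference, with 4 and 2 over all. No S. alfredii library could be left out of the species differences in Cd response.

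Counts over all transcripts also moved. For Cd in roots, edgeR called 21 higher and 394 lower, DESeq2 10 and 171, and edgeR without a filter 63 and 653. For the species difference in roots the counts were 3 and 3, 13 and 5, and 26 and 9, and in shoots 49 and 90, 63 and 100, and 136 and 168.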
